A study of Mus musculus with 6 samples.

Results

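Immediate early genes are switched on within minutes of a stimulus, without new protein synthesis, and most encode transcription factors. The members described here are Fos, Fosb, Jun, Junb, Egr1, Egr2, Atf3, Dusp1, Ier2 and Nr4a1. They were chosen by symbol from the authors' deposited table, which held 1 row for each, 10 of 18421 genes. By textbook function 8 of the 10 are transcription factors, whereas Dusp1 encodes a MAP kinase phosphatase and Ier2 a nuclear protein of the early response. Renal tissue of 3 Dkk3 knockout (Dkk3-/-) mice was compared with that of 3 C57Bl/6 wild-type mice, 6 samples in all. All kidneys were taken 7 days after unilateral ureteral obstruction, in which a tied ureter makes urine back up into the kidney. The labels give C57Bl/6 as the background strain of both genotypes and give no age, knockout allele or number of backcrosses. The contrast therefore asks how loss of Dkk3, a secreted dickkopf family glycoprotein, alters transcripts of the obstructed kidney. The values used were the authors' own edgeR results. No value per sample was at hand, so whether the genotypes overlap mouse by mouse, and the depth of each library, are unknown.

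Fos and Jun proteins pair through leucine zippers into the dimeric factor AP-1. Egr1 and Egr2 are zinc finger factors, Nr4a1 is an orphan nuclear receptor, and Atf3 belongs to the CREB and ATF zipper family. MAP kinases and cAMP switch these genes on through serum response factor, which binds the CArG box, and through CREB, which binds the cAMP response element (CRE). In the kidney these genes respond to injury, stretch and inflammation, and also to handling of the tissue, and leukocytes use them as well. Dusp1 acts as feedback by removing phosphate from MAP kinases.

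Promoter sequence was compared because these elements are what the genes are known to share. RefSeq windows (GRCm38.p6, 250 bases before to 50 after the annotated start) were matched by symbol for 8 of the 10 members, all but Egr1 and Ier2. The 150 bases before the start are printed 5′ to 3′ for Fos (chr12:85473740-85473889, plus strand), Fosb (chr7:19310046-19310195, minus strand), Egr2 (chr10:67537719-67537868, plus strand) and Dusp1 (chr17:26508473-26508622, minus strand). The Fos, Fosb and Egr2 genes had the largest log2 fold changes of the 8, and Dusp1 the smallest. Capitals mark CRE half-sites (TGACG or its complement CGTCA), the full CRE (TGACGTCA, which holds a half-site on each strand), CArG boxes and TATA boxes (TATAAA on either strand).
Fos: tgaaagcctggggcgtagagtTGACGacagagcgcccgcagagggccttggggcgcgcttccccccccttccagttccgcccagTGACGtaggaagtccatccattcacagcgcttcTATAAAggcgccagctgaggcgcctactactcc
Fosb: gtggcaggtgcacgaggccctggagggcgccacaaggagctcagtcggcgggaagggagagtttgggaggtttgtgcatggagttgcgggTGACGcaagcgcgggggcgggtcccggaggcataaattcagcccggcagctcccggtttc
Egr2: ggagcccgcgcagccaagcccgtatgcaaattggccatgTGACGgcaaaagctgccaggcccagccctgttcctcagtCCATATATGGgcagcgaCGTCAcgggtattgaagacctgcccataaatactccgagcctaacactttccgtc
Dusp1: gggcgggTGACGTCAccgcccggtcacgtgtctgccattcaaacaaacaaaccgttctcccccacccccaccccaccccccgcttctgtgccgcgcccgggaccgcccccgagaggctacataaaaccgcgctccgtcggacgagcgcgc
The CRE half-site was in 7 of the 8 windows, all but that of Jun, whereas 20.8% of the 32851 windows in the RefSeq table held it. The full CRE was in 1 member window, that of Dusp1, against 1.79% of all windows. A CArG box was found in 1, that of Egr2 at 72 bases before the start, against 1.63% of all windows. The windows reach 250 bases before the start and none was at hand for Egr1 or Ier2, so CArG boxes elsewhere were not searched. A TATA box was in the windows of Fos and Junb, 2 of 8, against 13.6% of all windows. The Junb match covers bases 1 to 6 from the annotated start and so does not lie before it. The EGR site GCGNGGGCG, searched on both strands, was in those of Fosb and Nr4a1, 2 of 8, against 5.55%. The AP-1 site TGANTCA, which reads alike on both strands, was in 0 of the 8 windows, against 7.81% of all windows. Only these patterns were matched, so a window without a match can still hold a close variant. A match describes letters in the window and is not evidence of binding.

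**Figure D1:**
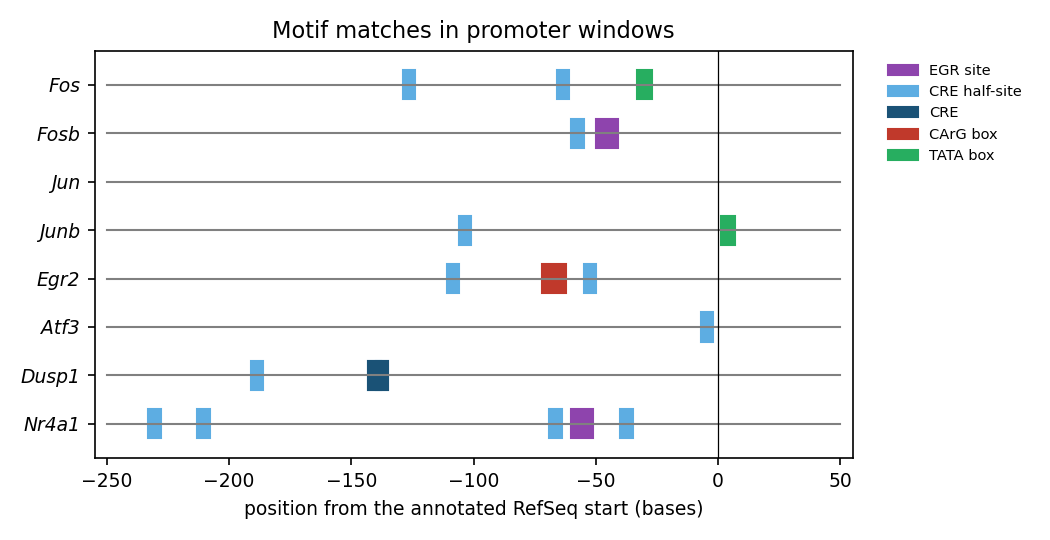
Motif matches in the promoter windows of 8 members, by position from the annotated RefSeq start in bases. Each line is 1 window and each coloured box is 1 match. A CRE half-site or full CRE is present in 7 of the 8 windows and a CArG box in 1.

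The Dkk3 transcript fell by 4.43 (log2 scale) per the authors' deposited table (edgeR adjusted p = 2.98e-67), which sets the direction in which every value is read, knockout over wild type. Its back-calculated level was 44.4 CPM in wild type and 2.06 CPM in the knockout. Such genotype levels, here and below, were computed from the average level and the fold change with both genotypes weighted alike, so they are approximations of levels. As a check of the tissue, the tubule markers Umod, at an average of 4039 CPM, and Slc34a1, at 1051 CPM, were abundant per the authors' deposited table.

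The log2 fold changes of all 10 members were above 0, between 0.08 and 0.89 with a median of 0.39, per the authors' deposited table. Of these members 1 passed an adjusted p of 0.05, Egr1, where 2.06% of all genes passed in either direction and 1.17% upward in edgeR's test. A further 3 members, Fos, Fosb and Junb, had an unadjusted p under 0.05 without passing the adjusted threshold. That makes 4 of 10 at an unadjusted p under 0.05, all upward, against 5.91% of all genes upward in edgeR's test. Log2 fold changes above 0 were found for 52.3% of all genes, whose median was 0.01. The members come from the same 6 kidneys and can vary together from mouse to mouse, so their shared direction is not 10 separate observations. They were also chosen with earlier results of these data known, so these counts are not an independent comparison with all genes.

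**Figure D2:**
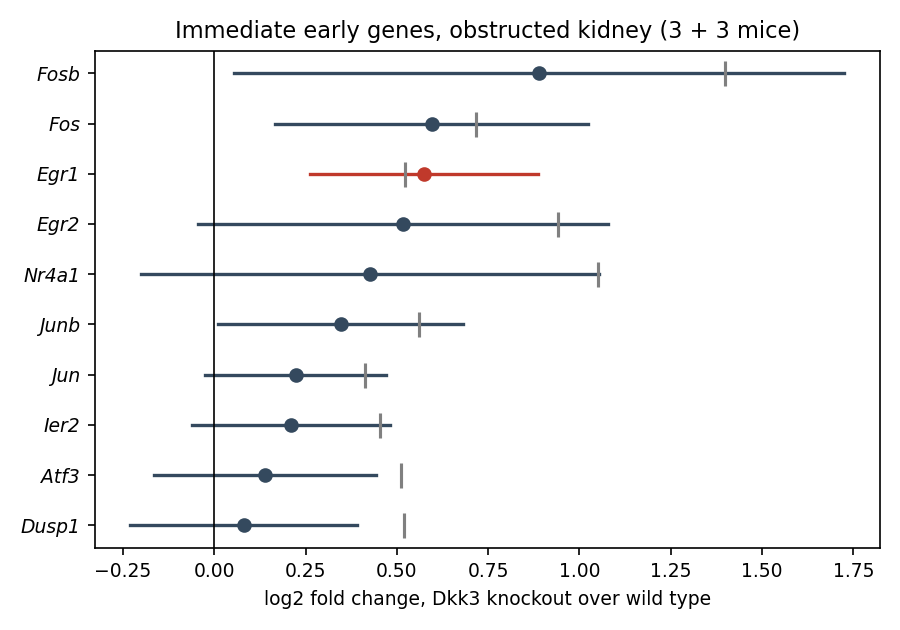
Log2 fold change of each member, knockout over wild type, as a point with its approximate 95% interval. Egr1, in red, is the member with an adjusted p under 0.05. Grey ticks mark the log2 fold change each gene needed, at its standard error, to reach the score of the weakest called gene. Egr1 alone lies beyond its tick.

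Among the zinc finger members, Egr1 rose and Egr2 did not pass. Egr1 (ENSMUSG00000038418) lies on chromosome 18 at 34859823 to 34864984 (GRCm38) and averaged 70.8 CPM per the authors' deposited table. Its back-calculated level was 56.9 CPM in wild type and 84.7 CPM in the knockout. This was a 1.49-fold increase, or 0.57 on the log2 scale with an adjusted p of 0.0216 per the authors' deposited table (edgeR), and an approximate 95% interval of 0.26 to 0.89. Egr1 ranked 262 by p among all genes per the authors' deposited table. The call ended when the score was read on an F distribution with 14 degrees of freedom (adjusted p = 0.200), which allows for the small number of mice, and at a required 1.5-fold change. Egr2 (chr10:67535475-67542188), an activation factor of lymphocytes and macrophages as well as of Schwann cells, averaged 11.6 CPM per the authors' deposited table. Its log2 fold change was 0.52 with an adjusted p of 0.551 per the authors' deposited table, and its interval ran from -0.05 to 1.08. The estimates of both EGR genes were thus alike in size, and the wider interval of Egr2 spanned 0.

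The Fos subunits of AP-1 had the largest estimates of the members, and neither passed. Fos (chr12:85473890-85477273) averaged 11.1 CPM per the authors' deposited table, with back-calculated levels of 8.86 CPM in wild type and 13.4 CPM in the knockout. Its log2 fold change was 0.60 per the authors' deposited table, a ratio of 1.51, with an adjusted p of 0.157 (edgeR) and an approximate interval of 0.17 to 1.02. Fos had a slightly larger estimate than Egr1 with a larger standard error, 0.22 against 0.16. Fosb (chr7:19302696-19310051), which encodes a close relative of Fos, was the scarcest member at an average of 0.840 CPM per the authors' deposited table. Its log2 fold change was 0.89, the largest of the 10, with an adjusted p of 0.412 per the authors' deposited table and an interval of 0.05 to 1.72. Fosb lies on chromosome 7, 92.8 Mb from Dkk3, and it is the member on that chromosome. Sequence around a targeted gene can come from the donor strain, and such an effect cannot be told apart from that of Dkk3 loss here.

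The Jun subunits were the most abundant members, also per kb, and had smaller estimates than the Fos subunits. Jun (chr4:95049034-95052222), the main partner of Fos, averaged 154.0 CPM per the authors' deposited table. Its log2 fold change was 0.22 with an adjusted p of 0.571 per the authors' deposited table, and its interval ran from -0.02 to 0.47. Junb (chr8:84974484-84978718), which encodes a weaker activator than Jun, averaged 149.1 CPM per the authors' deposited table. Its log2 fold change was 0.35 with an adjusted p of 0.445 per the authors' deposited table, and its interval ran from 0.01 to 0.68. Jun is also 1 of 74 genes on the authors' Wnt-related sheet, the sole member listed there. Both genes overlap a gene of the opposite strand. Junb shares 5.76% of its 50-nt stretches, the read length, with Prdx2, and Jun shares 5.83% with the antisense gene Junos. Whether the authors counted by strand is not given in the sources used here, so these reads cannot be told apart. Prdx2 stood at a log2 fold change of -0.01 at 244.7 CPM per the authors' deposited table. The other 8 members shared no 50-nt stretch with another annotated gene.

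The remaining members, a nuclear receptor gene, Ier2, Atf3 and Dusp1, did not pass either. Nr4a1 (chr15:101254269-101274795), a receptor that antigen receptor signalling induces in lymphocytes, averaged 12.1 CPM per the authors' deposited table. Its log2 fold change was 0.43 with an adjusted p of 0.757 per the authors' deposited table, and its interval ran from -0.20 to 1.05. Ier2 (chr8:84661331-84662852) stood at 0.21 with an adjusted p of 0.678 per the authors' deposited table, and its interval was -0.06 to 0.48. Atf3 (chr1:191170296-191218039), a stress-induced factor that often represses, stood at 0.14 with an adjusted p of 0.867 per the authors' deposited table, and its interval was -0.17 to 0.44. Dusp1 (chr17:26505590-26562128) stood at 0.08 with an adjusted p of 0.956 per the authors' deposited table, and its interval was -0.23 to 0.39. The intervals of 6 members therefore spanned 0, and those of Jun, Ier2, Atf3 and Dusp1 ended below the 1.5-fold level (0.58 on the log2 scale). No test compared one member with another.

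**Figure D3:**
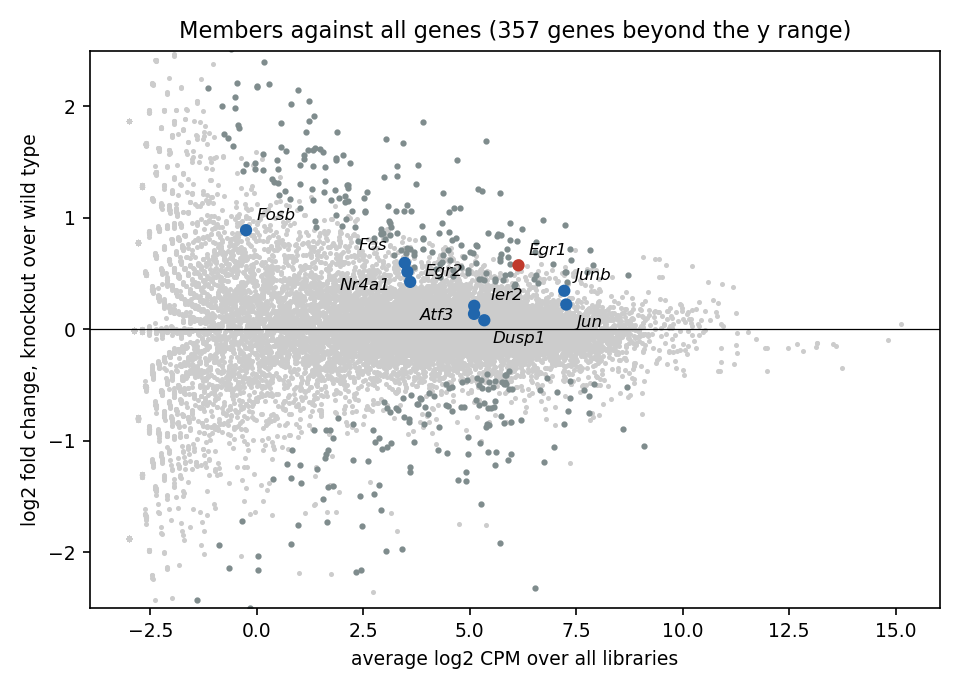
Log2 fold change against average log2 CPM for all genes, with genes past an adjusted p of 0.05 in dark grey, Egr1 in red and the other 9 members in blue. The plot leaves 357 genes beyond a log2 fold change of 2.5 outside its range. All 10 members lie above 0, and the scarce Fosb lies highest.

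Average levels can be set side by side between genes only per length of transcript. Per kb of the principal GENCODE transcript, Junb was the most abundant member at 82.4 CPM per kb, followed by Jun at 48.3. Next came Ier2 at 22.6, Dusp1 at 20.4, Atf3 at 17.3 and Egr1 at 15.8 CPM per kb. The lower levels were 5.27 for Fos, 4.76 for Nr4a1, 3.91 for Egr2 and 0.222 CPM per kb for Fosb. Jun family transcripts thus exceeded Fos family transcripts on this scale. With no value per sample, which neighbours in this order differ beyond their spread could not be said.

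The precision of the members was lower than that of most genes of like abundance. The approximate standard error of the log2 fold change was compared with the median of genes within 0.25 log2 CPM of each member. It was above that median for all 10 members, by a median ratio of 1.24. The ratio was highest for Nr4a1, at 1.83 with 99.2% of 947 such genes below it, and for Egr2, at 1.61 with 98.4% of 914 below it. For Jun the ratio was 1.01 and for Fosb 1.01, close to genes of their level. The ratio was 1.33 for Egr1, the called member. At a given level the standard error grows with the spread between kidneys of a genotype, which cannot be assigned to single mice here. Other sets showed it too, with a median ratio of 1.15 over 32 other immediate early genes, 1.25 over 12 T cell markers and 1.47 over 13 tubule markers, against 0.96 over 21 MAP kinases and their upstream kinases. At these standard errors a fold change of 1.44 was needed for Egr1 to reach the score of the weakest called gene, 1.64 for Fos, 1.92 for Egr2, 2.07 for Nr4a1 and 2.64 for Fosb.

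**Figure D4:**
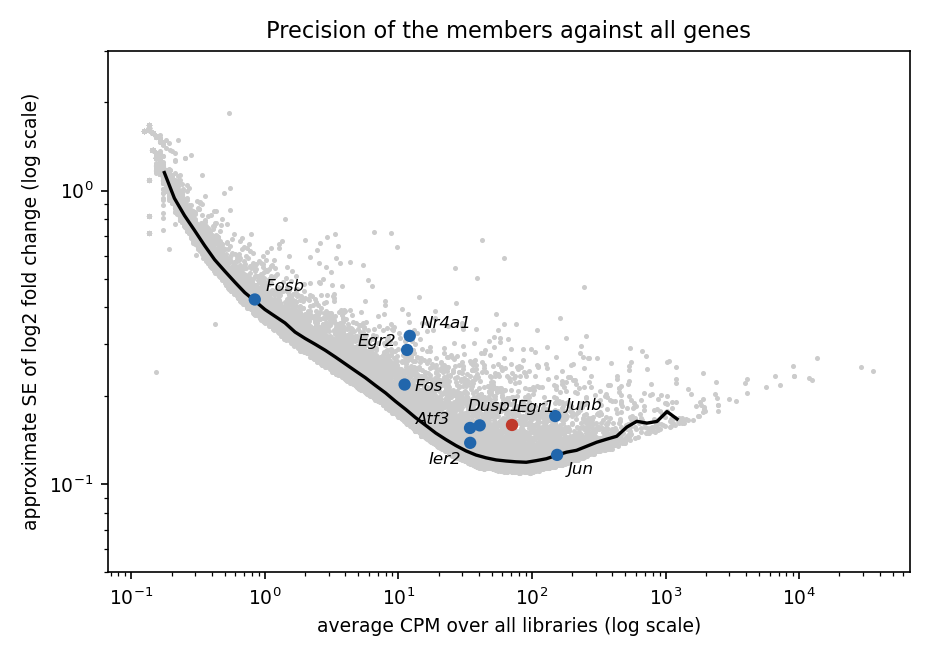
Approximate standard error of the log2 fold change against average CPM, both on log scales, for all genes in grey, with their running median as a line, Egr1 in red and the other 9 members in blue. Nr4a1 and Egr2 lie farthest above the line, and Jun and Fosb lie close to it.

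Some close relatives of the members had larger log2 fold changes than any member, a difference that was not tested. Of 6 other EGR and NR4A genes and EGR co-repressors, 2 rose, against 1.17% of all genes called upward in edgeR's test. Both were at low abundance. Nr4a3, which encodes a receptor of the Nr4a1 family, rose by 1.56 on the log2 scale (approximate interval 0.82 to 2.31, edgeR adjusted p = 0.00484) at an average of 2.16 CPM per the authors' deposited table. Its back-calculated level was 1.09 CPM in wild type and 3.23 CPM in the knockout. Egr3, a zinc finger factor that T cells induce on activation, rose by 1.44 (approximate interval 0.61 to 2.26, edgeR adjusted p = 0.0367) at 0.971 CPM per the authors' deposited table. The third NR4A gene, Nr4a2, stood at 0.03 with an interval of -0.68 to 0.75 per the authors' deposited table. Nab2, a co-repressor that EGR factors induce against themselves, stood at 0.30 with an adjusted p of 0.267 per the authors' deposited table. Neither Nr4a3 nor Egr3 was called with the F distribution, and Egr3 was not called after division by the inflation factor either.

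Other AP-1 and partner zipper subunits did not pass. In edgeR's test 0 of 14 were called at the adjusted threshold, against 2.06% of all genes. An unadjusted p under 0.05 was found for 3, all upward, against 5.91% of all genes upward. Their median log2 fold change was 0.18, with 13 of 14 above 0. The smallest p values were those of Maff, at 0.40 (adjusted p = 0.164), Fosl2, at 0.35 (adjusted p = 0.324), and Batf2, at 0.68 (adjusted p = 0.428), per the authors' deposited table.

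Among 32 measured other immediate early genes 1 rose, Ppp1r15a, which encodes the phosphatase subunit GADD34 that ends the stress arrest of translation. It rose by 0.54 on the log2 scale (edgeR adjusted p = 0.0383) per the authors' deposited table and lies on chromosome 7, 66.6 Mb from Dkk3. The 1 call of 32 stands against 1.17% of all genes called upward in edgeR's test. Of the 32 genes 28 were above 0, against 52.3% of all genes, and the median was 0.18. An unadjusted p under 0.05 was found for 10, all upward, against 5.91% of all genes upward. Next by p per the authors' deposited table were the cytokine feedback gene Socs3, at 0.46 (adjusted p = 0.0586), and the zipper factor gene Cebpb, at 0.37 (adjusted p = 0.168). The Ppp1r15a call ended at a required 1.5-fold change, after division by the inflation factor and with the F distribution.

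Genes upstream of the members stayed short of the threshold. In edgeR's test 0 of 21 MAP kinases and upstream kinases were called, also at an unadjusted p under 0.05 (0 genes), and the median log2 fold change was 0.03. Over all genes the shares were 2.06% and 10.6%. For 14 transcription factors and coactivators that act on these promoters the counts in edgeR's test were likewise 0 and 0, with a median of 0.14, and serum response factor gene Srf stood at 0.14 (adjusted p = 0.758) per the authors' deposited table. Transcript levels say nothing of kinase activity. Of 16 MAP kinase feedback inhibitors 0 were called in edgeR's test, against 4 at an unadjusted p under 0.05, all upward, with a median of 0.17. The lymphoid phosphatase gene Dusp2 had the smallest p, at 0.82 with an adjusted p of 0.0888, followed by Dusp5 at 0.54 (adjusted p = 0.285), per the authors' deposited table.

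Of 18 genes that AP-1 or EGR1 are known to act on, 3 rose, against 1.17% of all genes called upward in edgeR's test. Log2 fold changes above 0 were found for 16, against 52.3% of all genes, with a median of 0.30. Of the 3 called genes, the metalloproteinase inhibitor gene Timp1 rose by 0.64 (edgeR adjusted p = 0.0215) and the stromelysin gene Mmp3 by 1.06 (edgeR adjusted p = 0.0338) per the authors' deposited table. Both of these genes have other regulators, and none of the 3 was called with the F distribution. The Mmp3 call also ended after division by the inflation factor (adjusted p = 0.0578). Of 12 genes of the ATF4 stress response, the pathway that also induces Atf3, 1 rose, against the same 1.17% of all genes. This was the p53 and stress target Sesn2 (0.39, edgeR adjusted p = 0.0380 per the authors' deposited table). The list median was 0.02, with 7 of the 12 above 0 and 5 below. The lowest, neither of them called, were Chac1 at -0.52 and Trib3 at -0.51, and Atf4 itself stood at 0.004, per the authors' deposited table. The Sesn2 call ended at a required 1.5-fold change, with the inflation factor (adjusted p = 0.0640) and with the F distribution (adjusted p = 0.240). Of 13 heat shock genes 0 were called in edgeR's test, against 1 at an unadjusted p under 0.05, Dnajb1, at 0.30 (adjusted p = 0.325 per the authors' deposited table), with a median of 0.10. Over all genes 2.06% were called and 10.6% had an unadjusted p under 0.05 in that test.

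**Figure D5:**
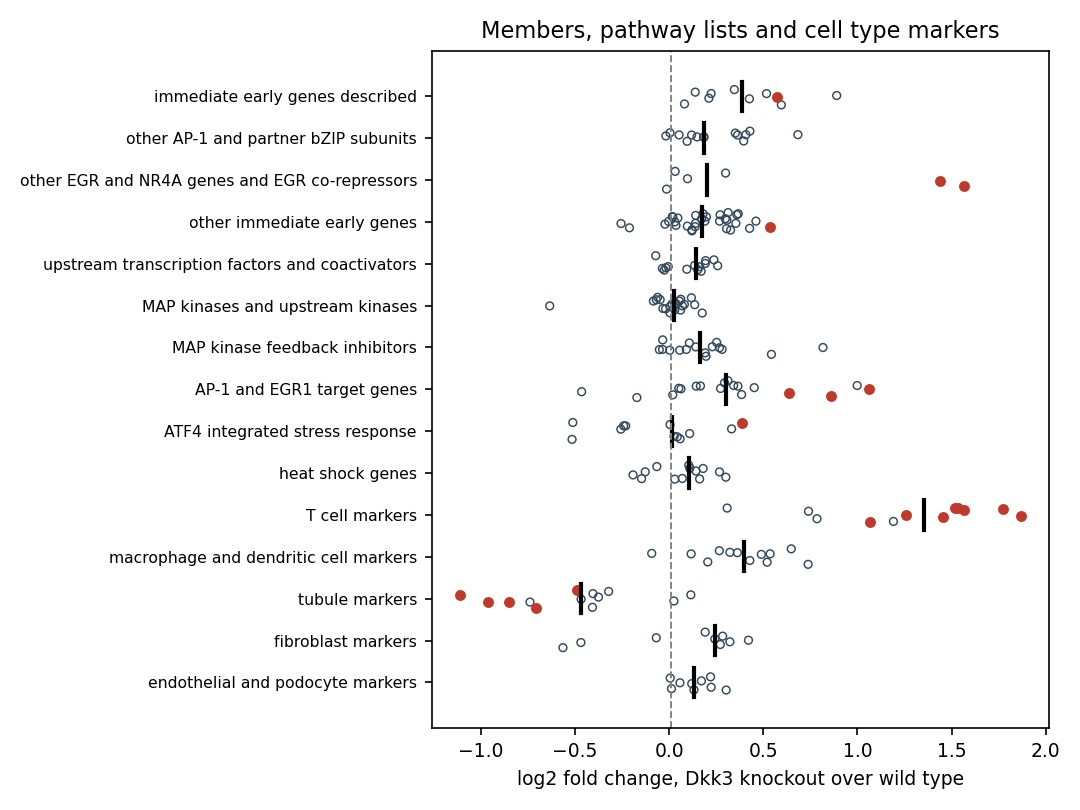
Log2 fold change of each gene, knockout over wild type, in the 10 members, the pathway lists and the cell type marker lists. Filled red points passed an adjusted p of 0.05, bars are list medians and the dashed line is the median of all genes. The member median is 0.39, that of the T cell markers is 1.35 and that of the tubule markers is -0.47.

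Markers of other cell types differed beside the members. The T cell list had 12 measured markers, all above 0 with a median log2 fold change of 1.35, and 8 rose, led by Il7r (1.77) and Cd3e (1.87) per the authors' deposited table. The other called T cell genes were Cd3g (1.57), Cd3d (1.52), Lck (1.07), Cd2 (1.53), Cd5 (1.45) and Zap70 (1.26) per the authors' deposited table. Their averages ran from 2.17 to 9.70 CPM. The macrophage and dendritic cell list had a median of 0.40 over 12 genes, about that of the members, with 11 above 0. In edgeR's test 0 of these were called, while the unadjusted p was under 0.05 for 6. Of 13 tubule markers 11 were below 0 with a median of -0.47, and 5 fell. These were Slc26a4 (-1.11), Aqp3 (-0.97), Calb1 (-0.85), Atp6v1b1 (-0.71) and Scnn1g (-0.49) per the authors' deposited table. Scnn1g lies on chromosome 7, 9.61 Mb from Dkk3, so an effect of donor-strain sequence cannot be told apart from that of Dkk3 loss. Without chromosome 7, 4 tubule markers were called. Fibroblast markers had a median of 0.24 over 9 genes, and endothelial and podocyte markers 0.13 over 9 genes, with 0 called in edgeR's test in either list. At an unadjusted p under 0.05 there were 1 and 0. The 1 was Lum, which was lower (-0.56 per the authors' deposited table), and of the fibroblast markers 6 were above 0 and 3 below. Over all genes 52.3% were above 0. In edgeR's test 1.17% were called upward and 0.89% downward, and 10.6% had an unadjusted p under 0.05. Whole kidney was sequenced, so a larger share of a cell type and more RNA per cell cannot be told apart. The part of these cell types in the values of Egr1, Nr4a3 and Egr3 was not tested.

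Genes next to the members did not pass. Within 20 kb of the 10 members the annotation places 27 other genes, of which 10 had a row in the authors' deposited table. In edgeR's test 0 of the 10 were called, against 2.06% of all genes. The unadjusted p was under 0.05 for 0, against 10.6% of all genes, and 5 were above 0, against 52.3%. The one nearest to a called member, Reep2 beside Egr1, stood at -0.01 per the authors' deposited table.

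Of the 9062 terms in the Gene Ontology test of the authors, those given here were chosen after their values were seen. For scale, the term with the most genes, cellular component, had 203 of 17306 counted as higher and 155 as lower. For the MAPK cascade, 7 of 514 genes were counted as higher (adjusted p = 1) per the authors' deposited table. For the cellular response to growth factor stimulus it was 6 of 305 (adjusted p = 1) and for the response to mechanical stimulus 3 of 78 (adjusted p = 0.943) per the authors' deposited table. For the response to cAMP, 2 of 51 genes were counted as higher (adjusted p = 1) and 4 as lower (adjusted p = 0.142) per the authors' deposited table. The cellular response to cAMP had 2 of 34 genes counted as higher (adjusted p = 0.909) and 2 as lower.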

How the data were processed

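Whole kidneys of 3 Dkk3 knockout and 3 wild-type mice were sequenced from 1 µg of RNA as single reads of 50 nt, with 10 samples pooled and 3 lanes run, per the labels. The build mm10 and edgeR, without a version, are named per the submitters' processing notes. How reads were aligned, counted, assigned to strands and filtered is not given in the sources used here. Per the file headers, the deposited table covers 18421 genes with a log2 fold change, the log2 of the average CPM, the score of a likelihood-ratio test, its p-value and the FDR, and no value per sample. The deposited Gene Ontology sheet holds other numbers, genes per term, with p-values of the authors. The p-value equalled that of the score on a chi-square distribution (relative tolerance 0.0001) in all 18421 rows. The FDR equalled the Benjamini-Hochberg value over the table.

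The planned edgeR fit of counts was replaced by the authors' own test, called at an adjusted p under 0.05. The standard error was approximated as the size of the log2 fold change over the square root of the score, and 95% intervals as 1.96 standard errors to each side. Library depth is unknown. These p-values set the difference between genotypes against a modelled spread between 3 mice a group. Read on chi-square, they do not allow for the small number of mice, as the F distribution does.

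Positions and lengths came from GENCODE M21 on GRCm38, the assembly of mm10, by Ensembl identifier (18314 genes). Members and lists were chosen with earlier results of these data known. All members were named, and of other lists the called genes and up to 3 with the smallest p, with others named beside them after their values were seen. The value of 1 called list gene is not reported here, and the counts include it. Alternatives tried were 0.1 as threshold, a fold of 1.5 or more, a minimum of 1 CPM, division of the score by its inflation factor of 1.09, the F distribution in place of chi-square (14 degrees of freedom, from 4 residual and 10 assumed as prior), centring and leaving out chromosome 7. The adjustment was run on simulated independent scores with planted shifts, which checks the code and not the calls made here. Python 3.11.15, pandas 2.3.3, numpy 2.4.6, scipy 1.17.1 and matplotlib 3.10.9 were used.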

Additional observations from a re-analysis of the deposited data

How the results depend on the processing

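The count of called members was 1, and it became 0 at a required 1.5-fold change and with the F distribution, both through Egr1. Egr1 kept its call at 1 CPM or more, with the inflation factor, after centring and without chromosome 7 (adjusted p = 0.0188, 0.0388, 0.0256 and 0.0294). The count of members above 0 was 10, or 9 where Fosb is left out at 1 CPM or more or without chromosome 7, and the member median ranged from 0.35 to 0.39. Over all genes 379 were called, 578 at a threshold of 0.1, 81 with the F distribution and 242 without chromosome 7. With the F distribution the counts were 0 for the other EGR and NR4A genes, the other immediate early genes, the AP-1 and EGR1 targets and the ATF4 genes, and 2 each for T cell and tubule markers. With the inflation factor they were 1 for the other EGR and NR4A genes and 0 for the other immediate early and ATF4 genes. At 1 CPM or more 1 of the other EGR and NR4A genes was called. At a 1.5-fold change 0 other immediate early genes and 0 ATF4 genes were called, and without chromosome 7 0 other immediate early genes. At a threshold of 0.1 there were 2 called among other immediate early genes, 1 among MAP kinase feedback inhibitors and 2 among macrophage and dendritic cell markers. Of 121 single-gene results under these alternatives, 106 stayed on their side of the threshold and 15 lost it. Only centring could change a sign, since the other settings leave the log2 fold change as it is. The F distribution rests on an assumed prior, and causes were not tested beyond the fewer genes left by a filter. No paired analysis was possible because the table holds no value per sample, and for the same reason neither leaving out a replicate nor DESeq2 size factors were run.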
